A study of Drosophila melanogaster with 42 samples.

Results

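Heat shock protein genes were followed in the heads and the central nervous system (CNS) of adult *Drosophila melanogaster* that differed in sex or in a gene of the somatic sex hierarchy. The members were chosen by name: *Hsp22*, *Hsp23*, *Hsp26*, *Hsp27*, *Hsp67Ba*, *Hsp68*, *Hsp70Ab*, *Hsp83*, *l(2)efl* and *DnaJ-1*. Probes were taken by the symbol in the array's annotation or its current name, which found 9 probes for 7 of the 10 genes, out of 16320 probes and 12165 named genes. *Hsp23*, *Hsp67Ba* and *Hsp83* were matched to no probe and are not analysed here. *Hsp22* has 3 probes and the other 6 genes have 1 each.

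Each of the 42 spotted oligonucleotide arrays carried 2 samples in 2 colours, and each value is the log2 ratio of the first named sample over the second. Heads of wild-type females were compared with those of males on 8 arrays, 4 of Canton S and 4 of Berlin flies. Canton S females were compared, on 4 arrays each, with chromosomally XX *tra* pseudomales (*tra1* over the deficiency *Df(3L)st-j7*), with XX *dsxD* pseudomales (*dsxD, Sb* over *dsxm+r15*), and with XX *dsx* null flies (*dsxd+r3* over *dsxm+r15*), and Canton S males on 4 arrays with XY *dsx* null flies of the same allele pair. Males mutant for the *P1* transcripts of *fru* were compared with wild-type males on 8 head arrays, 4 with *fru4-40/fruP14* against Canton S and 4 with *fruw12/frucham5* in a *w* background against *w*; Berlin. In the CNS, brain with ventral nerve cord, females and males of Canton S were compared on 4 arrays and *fru P1* mutant and wild-type males on 6, 3 for each allele pair. For those 6, the strain labels give *w*; Berlin as the control of *fruw12/frucham5* and Canton S as that of *fru4-40/fruP14*, while the titles name them the other way round, and all *fru* head titles name *w*; Berlin. The mutants come from other stocks than their controls, with *w* and a *ubi-gfp* transgene in the XX mutants, so stock and mutation cannot be told apart. The *fru* alleles include chromosomal deficiencies, and *fru4-40/fruP14* also removes other *fru* transcripts. Flies were up to 24 h old, from 0 h by the labels and from 8 h by the methods. Head samples held about 100 heads from flies frozen 8 h after collection under CO2, and CNS samples about 20 dissected animals with amplified RNA.

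Heat shock proteins are molecular chaperones that hold, refold or help to remove misfolded proteins. Small heat shock proteins bind unfolding clients without ATP. The Hsp70 family then folds them in ATP-driven cycles that J-domain proteins start and nucleotide exchange factors reset. In *Drosophila* the heat shock factor Hsf switches on *Hsp70*, *Hsp68* and the small heat shock genes within minutes of heat or other stress, whereas cognate Hsp70 proteins such as Hsc70-4 are made constantly. Several small heat shock genes, *Hsp22*, *Hsp26* and *Hsp27* among them, lie together on chromosome arm 3L and also respond to ecdysone. *l(2)efl*, on 2R, is a small heat shock protein gene outside that cluster.

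Arrays carried values for 36 to 72.9% of probes, and their median log2 ratios lay between -0.08 and 0.04. The limma test asked whether a probe's mean log2 ratio departed from 0, and took in probes that were measured on 75% or more of a comparison's arrays. A probe is called where its Benjamini-Hochberg adjusted p over all probes tested is under 0.15, and errors are limma's moderated SE. The methods call the samples independent biological samples but do not say that they came from separate cultures. The p-values therefore measure the spread between these samples. The main fit had no dye term, so this spread takes in any effect of dye orientation. The targeted genes fitted their labels where probes allowed: *tra* was higher in females than in *tra* pseudomales (log2 1.40, limma adjusted p 0.0681), and *fru* probe 16173 was lower in *fru P1* mutant heads (log2 -0.85, limma adjusted p 0.00730). Opposite dye orientations correlated at a median of -0.41 across probes on the female and male CNS arrays and at -0.516 on the *fru* CNS arrays, against 0.206 to 0.571 in the head comparisons. In whole heads, fewer cells of a type and less RNA per cell cannot be told apart.

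Coverage differed among the members. *Hsp70Ab* had a value on all 42 arrays, *l(2)efl* on 41, *DnaJ-1* on 40, *Hsp68* on 39, *Hsp22* probe 9145 on 35, *Hsp26* on 31 and *Hsp27* on 29. The remaining *Hsp22* probes, 3705 and 6425, gave 6 and 4 values and were tested in no comparison. *Hsp26* and *Hsp27* had no value on the female and male CNS arrays.

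*l(2)efl*, a small heat shock protein gene of the alpha-crystallin family, gave the clearest differences of the 7 genes. Its RNA was higher in female than in male heads and higher in Canton S females than in *tra*, *dsxD* and *dsx* null XX flies, and it was lower in *fru P1* mutant than in wild-type male heads. In the CNS its ratio turned with the dye.

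Between female and male heads, the *l(2)efl* log2 ratios were 0.65, 0.74, -0.10 and 1.04 on the Canton S arrays and 0.96, 0.90, 0.67 and 0.70 on the Berlin arrays. Every array but Canton S replicate 3 lay well above 0, and that array stood apart from the other 7. The mean was 0.70 (SE 0.11, n = 8, 1.62-fold higher in females, limma adjusted p 0.00631). *l(2)efl* was the only one of 6 member probes tested that was called, where 9.08% of all 8135 probes tested were called in either direction. On the Canton S arrays alone the mean was 0.58 and was not called (limma adjusted p 0.347), and the Canton S less Berlin difference was -0.22 (SE 0.22, limma adjusted p 0.854).

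Against *tra* pseudomales the *l(2)efl* log2 ratios were 1.95, 2.22, 1.99 and 1.61, all far from 0 in both dye orientations. RNA of *l(2)efl* was 3.84-fold higher in females (log2 1.94, SE 0.13, n = 4, limma adjusted p 6.99e-05), rank 35 by size among 9070 probes tested. Against *dsxD* pseudomales the ratios were 0.73, 0.93, 1.01 and 1.32, which lie below every *tra* array. Their mean was 1.00 (SE 0.12, n = 4, 2.00-fold, limma adjusted p 0.0107).

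Against *dsx* null XX flies the *l(2)efl* log2 ratios were 1.08, 0.75, 0.88 and 0.70, all above 0. RNA was 1.81-fold higher in females (log2 0.85, SE 0.10, n = 4, limma adjusted p 0.00246). Between males and *dsx* null XY flies the ratios were 0.57, -0.02 and 0.46, with no value on replicate 2. That mean of 0.34 (SE 0.15, n = 3) was not called (limma adjusted p 0.213), and the range of the 3 arrays includes 0. With dye as a covariate it was 0.40 and called (limma adjusted p 0.0677).

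Ordered by mean log2 ratio, *l(2)efl* ran from *tra* through *dsxD*, *dsx* null XX, the sex difference in heads, *dsx* null XY, the sex difference in the CNS and *fru* CNS down to *fru* heads. Of the neighbours in this order, *tra* and *dsxD* differed by 0.94 (SE 0.18, limma adjusted p 0.0764), where 0.417% of all probes were called for that difference. This call was lost without *tra* replicate 1, 2 or 3 or without *dsxD* replicate 2 or 3, with limma adjusted p between 0.218 and 0.261 and a difference of 0.85 at the least. *dsxD* and *dsx* null XX were not called as different (0.14, SE 0.16, limma adjusted p 0.781, where 5.75% of probes were called), nor were the XX and XY nulls (0.52, SE 0.18, limma adjusted p 0.683, where 0.751% were). The sex difference on the Canton S arrays was smaller than the ratio against *tra* pseudomales by 1.36 (SE 0.24, limma adjusted p 0.0160), where 4.33% of probes were called.

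**Figure D1:**
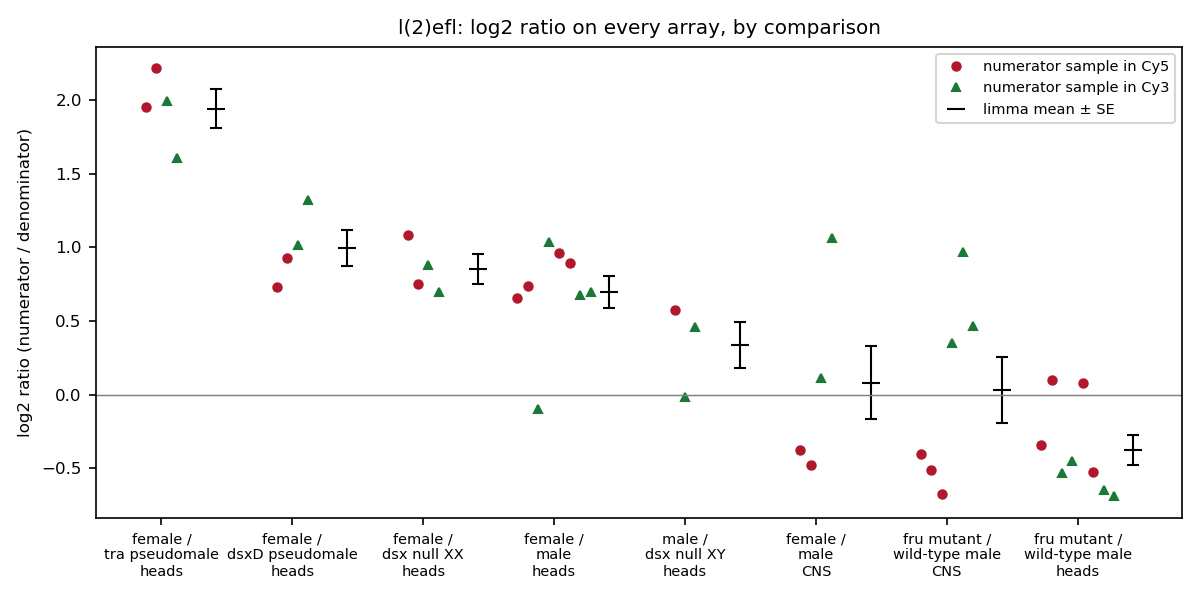
Log2 ratios of *l(2)efl* on every array of the 8 comparisons (vertical axis, numerator over denominator), ordered by mean from left to right. Circles are arrays with the numerator sample in Cy5, triangles those with it in Cy3, and the black bar is limma's mean ± SE. The 4 *tra* arrays sit between 1.61 and 2.22, above every other array, and in both CNS comparisons the orientations lie on either side of 0.

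In *fru P1* mutant heads the *l(2)efl* log2 ratios were -0.34, 0.10, -0.53 and -0.46 for *fru4-40/fruP14* and 0.08, -0.53, -0.65 and -0.69 for *fruw12/frucham5*. In each allele pair 3 of 4 arrays lay below 0, and the pairs overlapped. The mean was -0.38 (SE 0.10, n = 8, 1.30-fold lower in mutants, limma adjusted p 0.0656), and the *fru4-40/fruP14* arrays alone gave -0.31 (limma adjusted p 0.173). The pairs differed by 0.14 (SE 0.20, limma adjusted p 0.700). Of 7 member probes tested, 2 were called in these heads, where 11.6% of all probes were.

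Markers of other tissues moved in the same comparisons. Over all probes, the share called in either direction was 9.55% against *tra*, 5.97% against *dsxD*, 21.5% against XX and 25.7% against XY nulls. It was 9.08% between female and male heads and 11.6% in *fru* mutant heads, and some marker counts below are near these shares. Photoreceptor markers were lower in females than in mutants at 4 of 6 probes against *tra*, 4 of 6 against *dsxD* and 6 of 6 against *dsx* null XX flies, and lower in males than in *dsx* null XY flies at 6 of 6. Averaged over the list, the arrays ran from -1.5 to -0.549 against *tra*, from -1.17 to -0.796 against *dsxD*, from -1.97 to -1.52 for XX and from -1.81 to -1.17 for XY. Fat body markers were called in both directions against *tra*, 4 higher and 3 lower of 10 tested (array means 1.31 to 1.74), as against *dsxD*, 3 and 3 of 10 (1.24 to 1.67), XX nulls, 3 and 4 of 9 (-0.711 to 0.262), and XY nulls, 2 and 7 of 9 (-3.13 to -1.57). In female heads 5 were higher and 1 lower of 8 than in male heads (array means 1.65 to 3.54). The fat body list includes *Yp1*, *Yp2*, *Yp3*, *fit*, *sxe2* and *Cyp4d21*, which the paper gives as sex-biased. Its means therefore do not measure how much fat body a sample held. Muscle markers were higher in female than male heads at 6 of 11 probes (array means -0.0529 to 0.765) and in *fru* mutant heads at 4 of 11 (array means -0.0684 to 0.468). They were higher in males than in XY nulls at 4 of 11 (-0.0605 to 0.453). Against XX nulls 2 muscle probes were higher in females and 1 lower of 11 (0.00878 to 0.317). Neuron markers were higher in wild type than in XX nulls at 4 of 11 probes (array means 0.146 to 0.438) and than in XY nulls at 6 of 11 (0.202 to 0.604), and lower in female than in male heads at 5 of 11 (-0.411 to 0.143). In *fru* mutant heads 2 of 6 photoreceptor probes were higher (array means -0.208 to 1.01) and 2 of 10 neuron probes lower (-0.575 to 0.00905). Glia markers were lower at 2 of 6 probes both in female than in male heads (array means -0.421 to -0.071) and in *fru* mutant heads (-0.396 to 0.0338). Their part in the heat shock gene ratios was not tested.

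*Hsp70Ab*, a copy of the major stress-inducible Hsp70, and *Hsp68*, a further inducible member of that family, were lower in females than in *tra* pseudomales. On the 4 *tra* arrays the *Hsp70Ab* log2 ratios were -1.25, -0.52, -1.69 and -1.48. All 4 lay below 0, and RNA was 2.36-fold lower in females (log2 -1.24, SE 0.18, limma adjusted p 0.00523). *Hsp68* gave -1.03, -0.07, -0.70 and -0.72, all below 0 but with replicate 2 close to it. Its mean was -0.63 (SE 0.16, 1.55-fold lower, limma adjusted p 0.0599), and the call was lost without replicate 1, 3 or 4 (limma adjusted p 0.190, 0.175 and 0.151).

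The small heat shock gene *Hsp26* moved the same way, with log2 ratios of -0.15, -0.63, -0.97 and -0.55 on the *tra* arrays. All 4 were below 0, and the mean of -0.58 (SE 0.15, 1.49-fold lower in females) was called (limma adjusted p 0.0599) but not without replicate 3 (limma adjusted p 0.217). *Hsp27*, whose product is a small heat shock protein found in the nucleus as well as the cytosol, had -0.49, -0.73 and -0.18 on 3 arrays. *DnaJ-1*, the J-domain partner of Hsp70, had -0.52, -0.30, -0.34 and -0.17. Neither passed the threshold, at -0.47 (SE 0.16, limma adjusted p 0.169) and -0.33 (SE 0.12, limma adjusted p 0.186). With dye as a covariate both were called, at -0.47 and -0.33 (limma adjusted p 0.127 and 0.0866).

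*Hsp22* probe 9145 alone of the inducible members leaned towards females on the *tra* arrays, with log2 ratios of 1.38, 0.34, -0.24 and 0.46. The arrays span 0, the mean was 0.49 (SE 0.22, limma adjusted p 0.326), and without replicate 3 it was 0.73 and called (limma adjusted p 0.123). *Hsp22* probe 6425 read 0.08 and -0.09 on replicates 2 and 4, where probe 9145 read 0.34 and 0.46. Of 7 member probes tested against *tra* pseudomales, 1 was called higher in females and 3 lower, where 4.51% and 5.04% of all probes were, or 9.55% in either direction. The median log2 ratio of the 7 was -0.47, and that of all probes 0.00.

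The ratio of *Hsp70Ab* against *tra* pseudomales also differed from the sex difference. On the Canton S female and male arrays it was -0.33, -0.31, 0.59 and -0.18, all above the 4 *tra* arrays, of which replicate 2 came nearest at -0.52. The difference was 1.18 (SE 0.27, limma adjusted p 0.0535), and without *tra* replicate 3 it was 1.03 and not called (limma adjusted p 0.171).

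Against *dsxD* pseudomales the inducible members spread widely, and replicate 2 lay far below the rest. *Hsp70Ab* gave log2 ratios of -0.21, -2.89, -0.98 and -0.89, *Hsp26* -0.53, -3.02 and -0.76 on 3 arrays, and *Hsp68* -0.06, -2.46, -0.45 and 0.32. The lowest value of each was on replicate 2. The means of -1.24, -1.44 and -0.66 were not called (limma adjusted p 0.207, 0.248 and 0.581), and without replicate 2 *Hsp70Ab* was at -0.69 and *Hsp68* at -0.06. *Hsp22* probe 9145 gave 1.55, -2.62, 0.89 and 0.99, so it was higher in females on 3 arrays and lower on replicate 2. Its mean was 0.20 (SE 0.64, limma adjusted p 0.941), and 1.14 without replicate 2, then called (limma adjusted p 0.0651). *Hsp22* probe 6425 read -0.02 and -0.37 on replicates 1 and 2, where probe 9145 read 1.55 and -2.62. Only *l(2)efl* of 7 member probes was called against *dsxD*, where 5.97% of all probes were. *Hsp27* gave -1.71, -0.08 and -0.68 on 3 arrays, all below 0, with a mean of -0.82 (SE 0.30, limma adjusted p 0.297). *DnaJ-1* lay between -0.44 and -0.08 (limma adjusted p 0.403). *Hsp70Ab* was called without replicate 1, at -1.59 (limma adjusted p 0.123), and with dye as a covariate, at -1.24 (limma adjusted p 0.0956), a setting that also called *Hsp27*, at -1.05 (limma adjusted p 0.0119).

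*Hsp26* was lower in wild type than in *dsx* null flies of either chromosomal sex. Against XX nulls its log2 ratios were 0.24, -1.84, -1.57 and -1.96, with 3 arrays far below 0 and replicate 1 above it. The mean was -1.28 (SE 0.34, 2.44-fold lower in females, limma adjusted p 0.0583), and not called without replicate 4 (-1.06, limma adjusted p 0.182). Between males and XY nulls the ratios were -1.99, 0.66, -1.89 and -1.11, again with 1 array above 0. The mean of -1.08 (SE 0.41, 2.12-fold lower in males) passed narrowly (limma adjusted p 0.135) and was lost without replicate 1, 3 or 4, at -0.78, -0.81 and -1.07 (limma adjusted p 0.273 to 0.293). Without replicate 2, the array above 0, it was -1.67 (limma adjusted p 0.00385). The XX and XY means differed by -0.20 (SE 0.61, limma adjusted p 0.999). *Hsp22* probe 9145 had -0.91 and -1.29 on 2 XX arrays, too few to test, and -0.97, -0.81 and 1.37 on 3 XY arrays, which span 0 (limma adjusted p 0.874).

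*DnaJ-1* was slightly lower in females than in XX nulls, with log2 ratios of -0.48, -0.43, -0.14 and -0.21, all below 0. The mean was -0.31 (SE 0.10, 1.24-fold lower, limma adjusted p 0.0990), lost without replicate 1, 2 or 4 (limma adjusted p 0.243, 0.20 and 0.188). In all, 3 of 6 member probes were called against XX nulls, where 21.5% of all probes were, and 1 of 7 between males and XY nulls, where 25.7% were. *Hsp70Ab* spanned 0 in both, with 0.67, -1.05, -0.97 and 0.13 for XX and 0.64, 1.74, -0.40 and 0.61 for XY. Its means of -0.30 and 0.65 were not called (limma adjusted p 0.549 and 0.203); for XY it was called with dye as a covariate (limma adjusted p 0.0716) and without replicate 3, at 1.00 (limma adjusted p 0.0412), as in the latter was *Hsp68* at 0.67 (limma adjusted p 0.0531). The *dsxD* less XX difference of *Hsp70Ab*, -0.94 (SE 0.55, limma adjusted p 0.524), was called with the replicate number as a block (limma adjusted p 0.119).

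In female and male heads no inducible member was called. *Hsp70Ab* ranged from -1.75 through a median of -0.29 to 0.59 on 8 arrays (log2 mean -0.41, SE 0.19, limma adjusted p 0.280), with Canton S replicate 3 alone above 0. Without that array *Hsp70Ab* at -0.55 and *DnaJ-1* at -0.23 were called lower in females (limma adjusted p 0.0801 and 0.0915). *Hsp26* ranged from -1.83 through -0.36 to 0.09 on 7 arrays, with Berlin replicate 8 far below the others. *Hsp68* stayed between -0.24 and 0.17 on 7 arrays, *Hsp27* between -0.94 and 0.22 on 6, and *DnaJ-1* between -0.59 and 0.22 on 8. The probes of *Hsp22*, whose product works in the mitochondrial matrix, disagreed. On Canton S replicates 1 and 2, probe 3705 read 0.56 and 0.75 where probe 9145 read 0.01 and 0.04, and on Berlin replicate 6 they read 0.07 and -0.73.

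In *fru P1* mutant heads *Hsp27* was called higher than in wild type, with log2 ratios of 0.39, 0.09 and 0.36 on 3 *fru4-40/fruP14* arrays and 0.26, 0.33, 0.12 and 0.06 on the *fruw12/frucham5* arrays. All 7 lay above 0, and the mean was 0.23 (SE 0.073, 1.17-fold, limma adjusted p 0.112). The call was lost without replicate 1, 4, 5 or 6 (limma adjusted p 0.182 to 0.219) and within either allele pair alone (limma adjusted p 0.209 and 0.270).

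*Hsp22* probe 9145 separated the *fru* allele pairs in heads. It gave log2 ratios of -0.01, -0.18, 0.72 and 0.57 with *fru4-40/fruP14* and -0.68, -1.05, -1.98 and -0.52 with *fruw12/frucham5*, and the pairs did not overlap. They differed by 1.33 (SE 0.30, limma adjusted p 0.0160), the only called difference among 6 member probes, where 23.9% of all probes were called. *Hsp22* probe 3705 read 0.15 on *fruw12/frucham5* replicate 8, where probe 9145 read -0.52. By the strain labels the allele pairs were hybridised against different wild-type stocks, while all *fru* head titles name *w*; Berlin. Alleles and stocks cannot be told apart. Photoreceptor markers were called higher in the same difference at 5 of 6 probes (median 0.89), *TotC*, a humoral stress gene, was higher by 2.34 (SE 0.61, limma adjusted p 0.0290), and their part in the *Hsp22* difference was not tested. Among the *fruw12/frucham5* arrays alone, *Hsp22* at -1.06, *Hsp26* at -0.49 and *Hsp70Ab* at -0.50 were called lower in mutants (limma adjusted p 0.0222, 0.0219 and 0.0510). On the *fru4-40/fruP14* arrays *Hsp70Ab* gave -0.49, -1.03, 1.82 and 0.59 and *Hsp26* 0.19, -0.87 and 1.56, with replicate 3 the highest of both. *Hsp26* over all 7 arrays was at -0.16 (limma adjusted p 0.796) and, without that replicate, at -0.44 and called (limma adjusted p 0.113). *Hsp70Ab* differed between allele pairs by 0.72 (limma adjusted p 0.367), and by 1.14 without *fru4-40/fruP14* replicate 2 (limma adjusted p 0.116). With dye as a covariate it was called at 0.72, and *Hsp26* at 0.90 (limma adjusted p 0.133 and 0.124).

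The inducible members lay far from 0 together on some head arrays and apart on others. Averaged over the *Hsp70Ab*, *Hsp68*, *Hsp26* and *Hsp27* probes with a value, 5 of 32 head arrays, picked out after their values were seen, had a mean beyond 1 in size. These were Berlin replicate 8 at -1.5, *tra* replicate 3 at -1.02, *dsxD* replicate 2 at -2.52, *dsx* null XY replicate 2 at 1.01 and *fru4-40/fruP14* replicate 3 at 1.46. The other 27 lay between -0.912 and 0.453. On *dsxD* replicate 2 the probes ran from -3.02 to -1.71, and on *fru4-40/fruP14* replicate 3 from 0.994 to 1.82. The probes lay on 1 side of 0 on 15 of the 32 arrays and on both sides on 17. On *dsx* null XY replicate 1 they ran from -1.99 to 0.638, and on XX replicate 4 from -1.96 to 0.258, with *Hsp26* the lowest on both. *Hsp22* probe 9145, which is not in this mean, was at 1.38 on *tra* replicate 1, where the others were below 0.

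**Figure D2:**
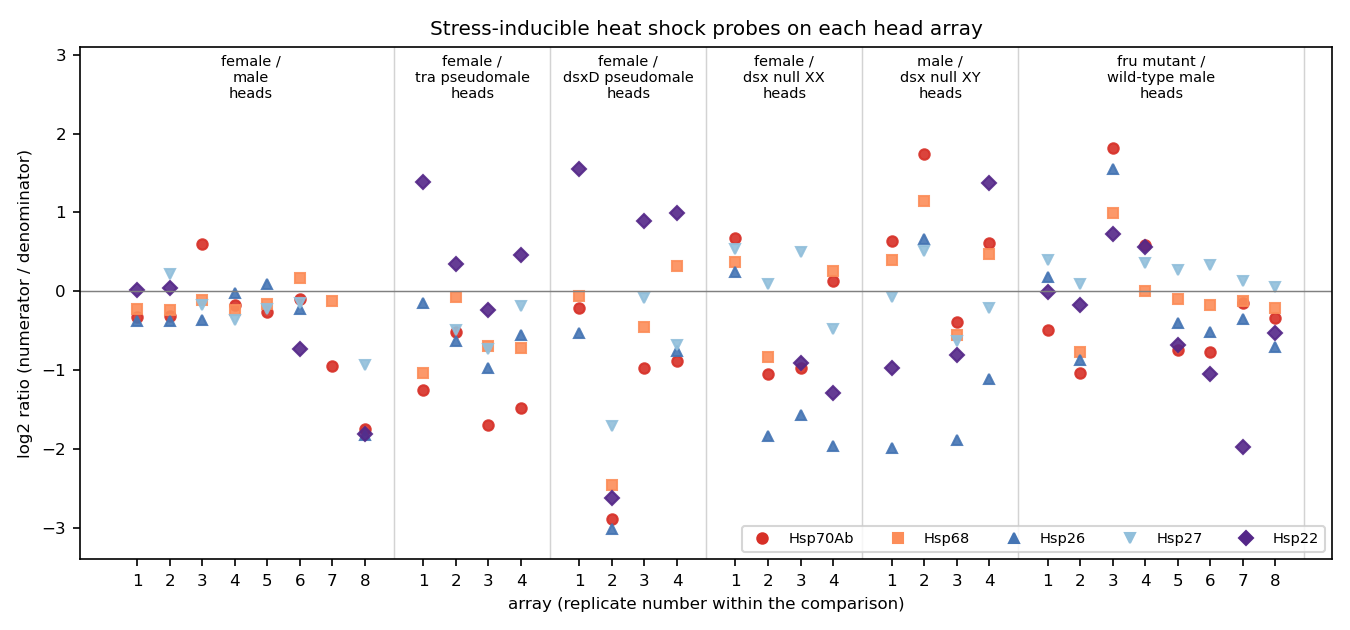
Log2 ratios of 5 stress-inducible probes (*Hsp70Ab*, *Hsp68*, *Hsp26*, *Hsp27* and *Hsp22* probe 9145; vertical axis, numerator over denominator) on each head array, grouped by comparison along the horizontal axis. On *dsxD* replicate 2 all 5 probes lie between -3.02 and -1.71, while on *fru4-40/fruP14* replicate 3 the 4 probes with a value lie between 0.72 and 1.82.

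Across arrays, *Hsp70Ab* followed the near-identical copies *Hsp70Bb* and *Hsp70Bbb* with Pearson's r of 0.976 over 32 and 0.953 over 29 head arrays. Such copies can share a probe's signal, so they are not separate measurements. *Hsp68* followed *Hsp70Ab* with r = 0.889 over 29 head arrays, *Hsp26* with r = 0.598 over 29 and *Hsp27* with r = 0.595 over 27. *l(2)efl* had r of -0.427 against *Hsp70Ab* over 31 head arrays, -0.589 against *DnaJ-1* over 29, -0.419 against *Hsp27* over 26 and -0.268 against *Hsp68* over 28, but was at -0.155 with *Hsp26* over 28 and 0.261 with *Hsp22* probe 9145 over 25. *Hsp22* probe 9145 was closest to *Hsp26* among the members (r = 0.566 over 23). These values describe arrays that share comparisons, dye orientations and stocks.

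Over all arrays, with at least 36 shared, the probes most like *l(2)efl* were *CG42319* (r = 0.824), *sug*, a zinc finger gene regulated by sugar (r = 0.809), and *CG7607* (r = 0.802), out of 4549 compared. For *DnaJ-1* they were *sau* (r = 0.784), *Chc*, the clathrin heavy chain (r = 0.741), and *shrb*, a subunit of the membrane-cutting ESCRT machinery (r = 0.739). For *Hsp70Ab*, *CG13255* (r = 0.631) and the Mediator subunit *MED11* (r = 0.62) came after *Hsp70Bbb* (r = 0.954). For *Hsp68* the nearest were the cuticle protein gene *Cpr92F* (r = 0.588), *btsz* (r = 0.574) and *Hsp70Ab* (r = 0.549). All these r pool head arrays with CNS arrays, on which several members split by dye orientation. Head arrays alone gave r = 0.889 for *Hsp68* and *Hsp70Ab*. The part of dye in these likenesses was not tested.

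In the CNS no member was called, between the sexes (0 of 5 tested, where 0.0602% of all probes were) or in *fru P1* mutants (0 of 5, where 0.269% were). No member passed an unadjusted p of 0.05 in either comparison, nor did the methods' t-test call any after Benjamini-Hochberg adjustment. The errors of both tests take in the split by dye described next. With dye as a covariate no member was called either. Of the 5, 4 split by dye orientation between the sexes. Where females carried Cy5, *Hsp70Ab* gave log2 ratios of 0.58 and 0.60, and where they carried Cy3, -0.53 and -0.56, and its mean was 0.02 (SE 0.24). *Hsp68* gave -0.74 and -0.52 against 0.32 and 0.57, and *l(2)efl* -0.38 and -0.48 against 0.11 and 1.06. *Hsp22* probe 9145 gave -0.41 and -0.05 against 0.29 and 0.58. In each of these 4 probes the orientations lay on opposite sides of 0. *DnaJ-1* gave -0.15 and 0.11 against -0.19 and -0.51, with 3 of 4 arrays below 0.

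On the *fru* CNS arrays *Hsp70Ab* and *l(2)efl* split by orientation in the same directions, *DnaJ-1* split too, and there the orientation is also the allele pair and the control stock. *DnaJ-1* gave log2 ratios of 0.54, 0.55 and 0.60 for *fruw12/frucham5*, with mutants in Cy5, and -0.45, -0.73 and -0.83 for *fru4-40/fruP14*, with mutants in Cy3. *Hsp70Ab* gave 0.48, 0.63 and 0.67 against -0.63, -0.38 and -0.93, and *l(2)efl* -0.41, -0.51 and -0.68 against 0.35, 0.97 and 0.47. The pairs did not overlap for any of the 3. The differences, *fru4-40/fruP14* less *fruw12/frucham5*, were -1.23 for *DnaJ-1* (SE 0.12), -1.24 for *Hsp70Ab* (SE 0.15) and 1.13 for *l(2)efl* (SE 0.17), with limma adjusted p of 0.000576, 0.000960 and 0.00195. These were 3 of 5 member probes, where 70.1% of all probes were called, and allele pair, control stock and dye cannot be told apart. *Hsp68* (-1.30, 0.99 and 0.46 against 1.47, 1.89 and 0.09) and *Hsp22* probe 9145 (-0.89, 1.09 and -0.40 against 0.24, -0.06 and -0.03) overlapped between the pairs. Without *fruw12/frucham5* replicate 2 both were called as different, by 1.57 and 0.69 (limma adjusted p 0.114 and 0.0238), as was *Hsp68* without *fru4-40/fruP14* replicate 6, by 1.63 (limma adjusted p 0.0803). *Hsp27* had 1.25 on *fruw12/frucham5* replicate 2 and 0.77 on *fru4-40/fruP14* replicate 4, too few to test. *Hsp26*, also untested, had 0.18 and -0.004 on *fru4-40/fruP14* replicates 5 and 6.

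**Figure D3:**
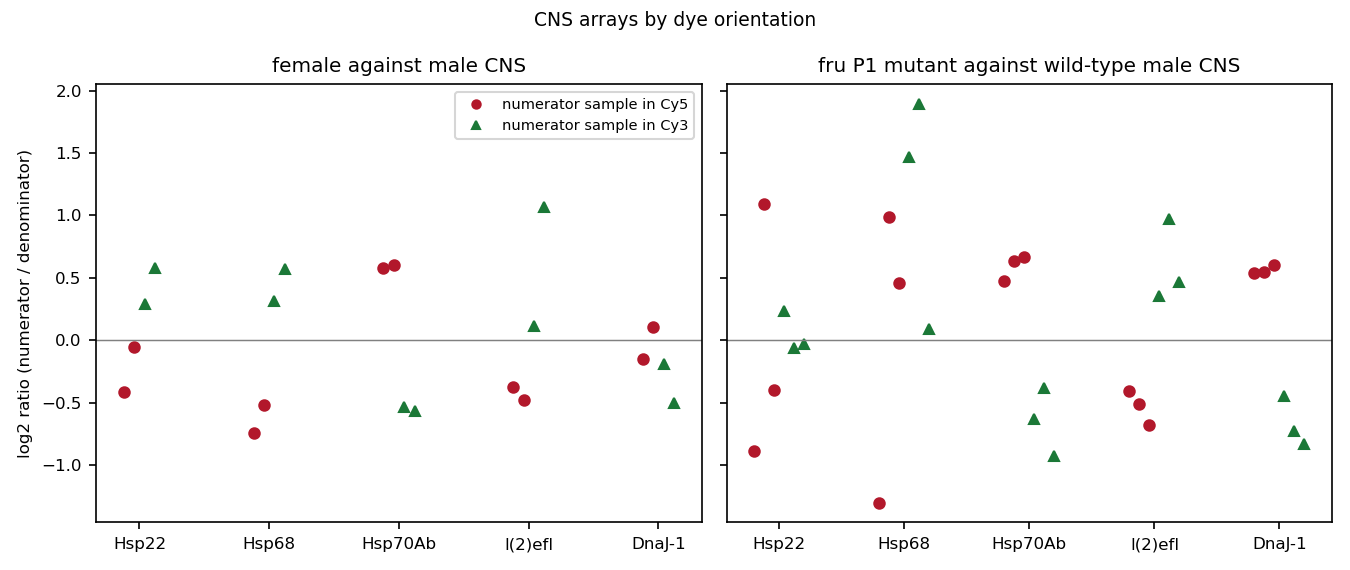
Log2 ratios of the 5 member probes tested in the CNS (horizontal axis) on the arrays of both CNS comparisons (vertical axis, numerator over denominator), with circles where the numerator sample carried Cy5 and triangles where it carried Cy3. *Hsp70Ab* lies between 0.48 and 0.67 on the circles and between -0.93 and -0.38 on the triangles of both panels.

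The difference between the head and CNS sex differences in Canton S was called for 0 of 4 member probes, where 0.130% of all probes were, and at no unadjusted p under 0.05. For *l(2)efl* it was 0.50 (SE 0.34, limma adjusted p 0.999). The Canton S less Berlin difference was likewise called for 0 of 6, where 0% of probes were; the smallest unadjusted limma p was 0.0584, for *Hsp70Ab* at 0.71.

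The wider chaperone machinery was read from 47 probes of 44 further genes. Against *tra* pseudomales 1 of 41 tested probes was higher in females and 6 were lower, where 4.51% and 5.04% of all probes were. Those lower were *Hsp70Bb* (log2 -1.16, SE 0.18), *Hsp70Bbb* (-1.12, SE 0.28), the cytosolic chaperonin subunit *CCT7* (-0.55, SE 0.13), the constitutive *Hsc70-4* (-0.47, SE 0.15), *stv*, a BAG-domain nucleotide exchange factor of Hsp70 (-0.46, SE 0.12), and the immunophilin *Fkbp59* (-0.45, SE 0.12), with limma adjusted p between 0.00566 and 0.121. *Hsp60C*, a mitochondrial chaperonin gene, was higher in females (0.48, SE 0.15, limma adjusted p 0.139). The *Hsf* probe itself was called in none of the 8 comparisons, with log2 ratios between -0.17 and 0.24.

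*Hsc70-3* is the fly BiP, a chaperone of the endoplasmic reticulum, and *Gp93* is the Hsp90 of that compartment. Both were lower in wild type than in *dsxD* and *dsx* null flies and higher in *fru* mutant heads. Neither was called against *tra* pseudomales. The *tra* less *dsxD* difference was called for 0 of 39 further chaperone probes tested, where 0.417% of all probes were called. *Hsc70-3* was at log2 -0.78 (SE 0.13) against *dsxD*, -0.39 (SE 0.11) against XX and -0.34 (SE 0.099) against XY nulls, and at 0.35 (SE 0.094) in *fru* heads, with limma adjusted p of 0.0332, 0.0789, 0.0662 and 0.0633. *Gp93* was at -0.40 (SE 0.11), -0.79 (SE 0.093), -0.90 (SE 0.11) and 0.35 (SE 0.10) in the same order, with limma adjusted p of 0.140, 0.00242, 0.00322 and 0.0859. *Gp93* was also higher in female than in male heads (0.30, SE 0.093, limma adjusted p 0.114), where *Hsc70-3* stood at 0.04 (limma adjusted p 0.852). Against *dsxD* these were the only called probes of 41, where 5.97% of all probes were called.

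**Figure D4:**
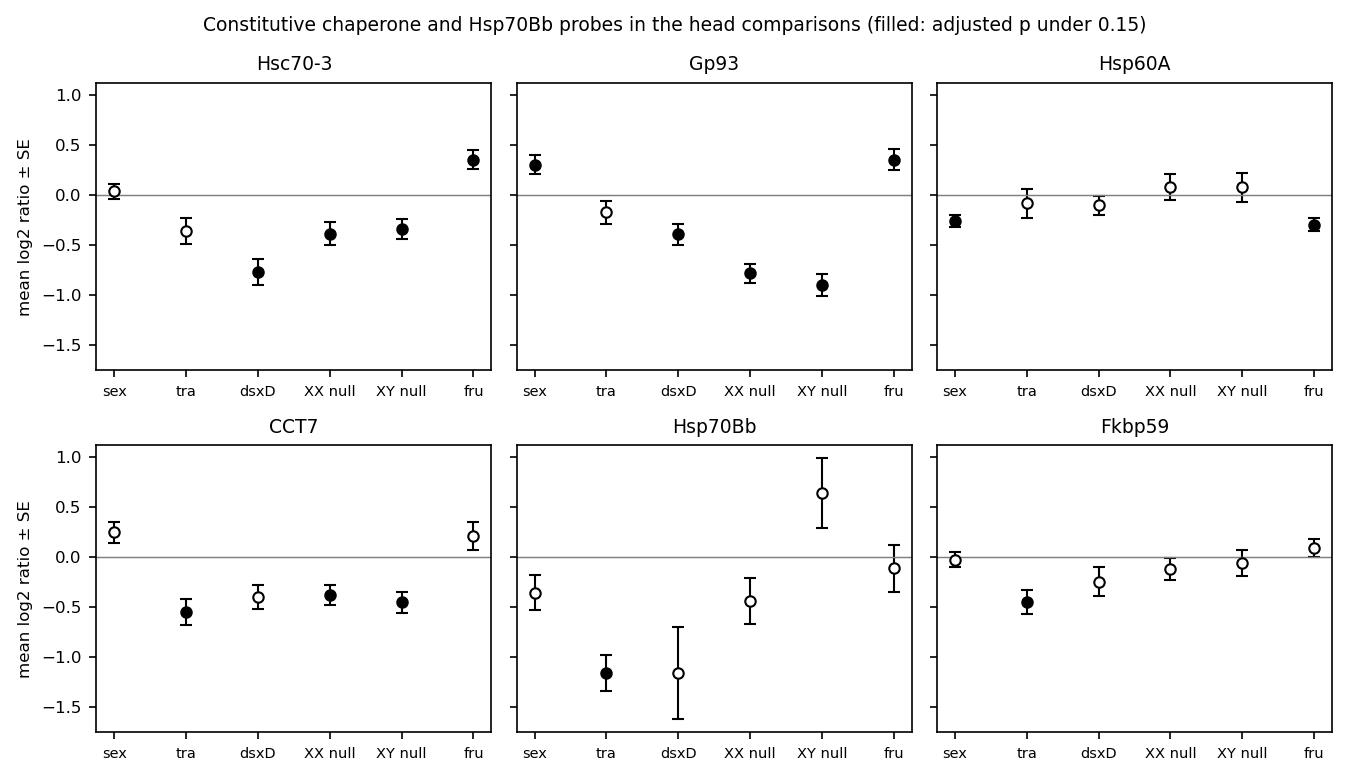
Mean log2 ratios ± SE (vertical axis) of 6 further chaperone probes in the 6 head comparisons (horizontal axis: female over male, female over *tra*, *dsxD* and XX null, male over XY null, *fru* mutant over wild-type male), with filled points where the limma adjusted p is under 0.15. *Gp93* runs from -0.90 in XY nulls to 0.35 in *fru* mutants, and *Hsp70Bb* is called only against *tra*.

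Of 38 probes tested against XX nulls 1 was higher in females and 6 lower, and of 39 between males and XY nulls 3 were higher and 5 lower, where 21.5% and 25.7% of all probes were called, so neither count exceeds the share over all probes. Among the called probes against XX nulls, besides *Gp93*, were *Hsp70Bbb* (-0.76, limma adjusted p 0.129, n = 3), the chaperonin subunit *CCT5* (-0.40, limma adjusted p 0.0967) and the Hsp90 cochaperone *p23* (0.30, limma adjusted p 0.148), and for XY nulls, beside *CCT7* and *jdp*, *Sec63*, a J-domain protein of the endoplasmic reticulum (-0.37, limma adjusted p 0.0565), and *Trap1*, the mitochondrial Hsp90 (0.37, limma adjusted p 0.112, n = 3). *CCT7* was lower in wild type in both (-0.38 and -0.45, limma adjusted p 0.0512 and 0.0326). *jdp*, a J-domain protein gene, was higher in males than in XY nulls on both its probes (0.39 and 0.30, limma adjusted p 0.0378 and 0.113). The median log2 ratio of the tested chaperone probes was -0.12 against *tra*, -0.10 against *dsxD*, -0.07 against XX and 0.10 against XY nulls, beside 0.00, -0.00, 0.01 and 0.03 over all probes.

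Between female and male heads 2 of 42 tested probes were higher in females and 4 in males, where 9.08% of all probes were called in either direction. *CG4461*, a small heat shock protein gene that lies between *Hsp22* and *Hsp26*, was higher in females (log2 0.40, SE 0.11, limma adjusted p 0.0807), and *jdp* probe 11115 (-0.29), the mitochondrial chaperonin *Hsp60A* (-0.26, SE 0.059) and *CCT6* (-0.24) were higher in males (limma adjusted p 0.0481, 0.0387 and 0.103). The other *jdp* probe stood at -0.14 and was not called (limma adjusted p 0.337). *Hsp60A* was lower in *fru* mutant heads as well (-0.30, SE 0.065, limma adjusted p 0.0276), where 3 of 37 probes were higher and 3 lower and 11.6% of all probes were called. The others there were *P58IPK* (0.22), *CG1416* (-0.25) and *DnaJ-60* probe 11681 (-0.21), with limma adjusted p of 0.124, 0.104 and 0.145. In the *fru* CNS the J-domain gene *Droj2* was lower in mutants on all 6 arrays (-0.86, SE 0.11, limma adjusted p 0.0625), the only probe called of 37, and none of 34 was called between the sexes in the CNS by limma, nor at an unadjusted p under 0.05.

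*TotC*, a secreted stress-response gene of the Turandot family, differed in several of the same head comparisons. It was lower in females than in *tra* pseudomales (log2 -1.52) and XX nulls (-3.07), lower in males than in XY nulls (-4.33), and higher in female than in male heads (1.00), while against *dsxD* it stood at -0.10 and was not called. Its part in the heat shock ratios was not tested.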

How the data were processed

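The members and gene lists were chosen with earlier results of these data known. The log2 values were deposited by the authors as lowess-normalised ratios after filtering of dim and poor spots, already turned for dye. They were used unchanged, and direction was checked on yolk protein, *fit* and *fru* probes. Arrays number 42, and 5881 to 11900 of 16320 probes carried a value per array; the number of arrays limits precision. Of the probes, 12273 were named by gene number and 116 by sequence entry in the current gene table, 524 kept the annotation's symbol and 3407 are unnamed. Tests used limma 3.58.1 in R 4.3.3, with values on at least 3 of 4, 5 of 6 or 6 of 8 arrays; differences between comparisons were fitted on the arrays of both. The fits were tested on simulated data.

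Alternatives were other limits on missing values, arrays centred and scaled, dye as a covariate, the methods' t-test, the replicate block, subsets by strain or allele, and leaving out each array. All member probes are named; of other chaperones, those called with the largest ratios, 3 per direction and comparison, with *Hsf*, *Hsc70-4*, *stv*, *Fkbp59* and further values of the same genes chosen after they were seen. Where *fru* labels conflicted, the second channel's strain was used. Deviations of same-numbered arrays correlated at 0.195 to 0.477 for *tra* and *dsxD* and 0.23 to 0.456 for *dsxD* and XX. The range was 0.32 to 0.505 for XX and XY, 0.123 to 0.362 for sex and *tra*, and -0.21 to 0.24 for head and CNS. Outside head and CNS, arrays of another number but the same dye correlated at medians of 0.251 to 0.467, so these values do not show pairing. The reported differences were fitted without pairing, and the replicate number was a block only as an alternative.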

Additional observations from a re-analysis of the deposited data

Results flagged for a closer look

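In 4 of 46 sets of 4 to 8 values of a member probe in a comparison, the highest or lowest array stood apart by Dixon's test at the 95% level, which chance gives in about 1 of 20 sets. *Hsp22* probe 9145 was at log2 -2.62 on *dsxD* replicate 2, where the next array was at 0.89. *Hsp26* was at -1.83 on Berlin replicate 8 between female and male heads, the next at -0.38. *Hsp68* was at 0.17 on Berlin replicate 6 there, the next at -0.12, and *l(2)efl* at -0.10 on Canton S replicate 3, the next at 0.65.

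Of 46 tests of whether a member probe's ratio differed between comparisons or groups, 7 were called by limma at an adjusted p under 0.15. *l(2)efl* differed between *tra* and *dsxD* by 0.94 and between the sex difference and *tra* by -1.36, and *Hsp70Ab* in the latter by 1.18. Of all probes, 0.417% were called for *tra* less *dsxD* and 4.33% for the sex difference less *tra*. *Hsp22* probe 9145 differed between the *fru* allele pairs in heads by 1.33, where 23.9% of all probes were called. In the CNS, *DnaJ-1* differed between the allele pairs by -1.23, *Hsp70Ab* by -1.24 and *l(2)efl* by 1.13. There the pair is also the dye orientation and the control stock, and 70.1% of all probes were called.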

How the results depend on the processing

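Counts of called member probes depended on the settings as follows, each beside the value in the report. These counts, and those without 1 array below, are given without the share of all probes called at each setting. A changed count is therefore not read as a result about the members. Female against male heads gave 0 on Canton S arrays alone (1 in the report) and 1 to 3 without 1 array. With the methods' t-test, *tra* gave 1 (4), *dsxD* 0 (1), XX nulls 1 (3) and XY nulls 0 (1). The call kept for *tra* and for XX nulls was that of *l(2)efl*. With dye as a covariate *tra* gave 6, *dsxD* 3, XY nulls 3, the *dsxD* less XX difference 1 (0) and the *fru* allele difference in heads 3 (1). XX nulls gave 4 and XY nulls 0 with a value on at least 2 arrays and XY nulls 0 with arrays centred and scaled, which gave 4 for the *fru* allele difference in the CNS (3). *fru* heads gave 1 with a value on every array, 0 for *fru4-40/fruP14* alone and 4 for *fruw12/frucham5* alone (2). The *fru* CNS gave 4 and 3 (0). There each pair alone has a single dye orientation, and 70.1% of all probes were called between the pairs. With the replicate block the *dsxD* less XX difference gave 1, for *Hsp70Ab*; it changed no other count. For head less CNS the block gave 0 of 4 as before.

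Leaving out 1 array gave 3 to 4 calls for *tra*, 1 to 2 for *dsxD*, 1 to 3 for XX, 0 to 2 for XY, 1 to 3 for *fru* heads, 0 to 1 for *tra* less *dsxD*, 1 to 2 for sex less *tra*, 1 to 2 for the *fru* alleles in heads and 3 to 5 in the CNS.

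In the *fru* CNS, 3 probes changed sign on the *fruw12/frucham5* arrays alone: *DnaJ-1* to 0.56, *l(2)efl* to -0.53 and *Hsp70Ab* to 0.59. The causes were not tested. Over all settings, called probes kept their call in 162 alternatives and lost it in 34, with no change of sign. The median SE over all probes tested was 0.0909 between female and male heads and 0.195 in the CNS on the log2 scale, which limits what these arrays can separate.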
